A study of Homo sapiens with 16 samples.

Results

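A375, an established human melanoma cell line with an activating BRAF mutation, was compared with and without an edited TFE3 gene. The comparison holds the 6 libraries of the series' 16 whose titles name A375: 3 labelled wild type and 3 labelled TFE3KO. The TFE3KO cells were made by CRISPR-Cas9 editing of A375, so MITF was not edited in either group. Both groups were grown in DMEM with 10% fetal bovine serum and antibiotics, in a separate flask for each replicate, and received fresh medium 24 h before harvest. Neither the labels nor the design text gives a clone number for the A375 TFE3KO cells or says whether they are 1 clone or a pool. The p-values therefore measure the spread between flasks of these cells, not between independently edited lines. The SKMEL28 libraries of the series, from another melanoma line grown in RPMI with the same serum, enter at the end: MITFKO, and MITFKO cells in which TFE3 was edited as well (clone 3 and clone 13), 3 libraries each. The SKMEL28 wild-type library entered only an alternative fit of all 16 libraries and the scaling of the SKMEL28 CPM values.

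TFE3 belongs with MITF, TFEB and TFEC to a family of basic helix-loop-helix leucine zipper transcription factors that bind E-box sequences with the core CACGTG. When nutrients are plentiful, mTORC1, recruited to the lysosome by the Rag GTPases and the folliculin complex, phosphorylates TFE3 and TFEB and keeps them in the cytoplasm; when mTORC1 is off, they enter the nucleus and switch on lysosome and autophagy genes. MITF drives pigment and differentiation genes in melanocytes, and melanoma cells with little MITF and much AXL are known for an invasive, undifferentiated state.

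The A375 libraries held 17530364 to 31269126 counts assigned to genes. Levels are given as CPM, counts relative to the library total after TMM scaling. Log2 changes are TFE3KO minus wild type, with the standard error of the fit, and a gene was called changed at an adjusted p under 0.05. Replicates of a group differed by a median of 0.100 to 0.117 on the log2 scale, and libraries of different groups by 0.232 to 0.242. Of the melanocyte markers, TYR and PRAME were at 0 in all 6 libraries, and DCT, TYRP1, MLANA, PMEL and MIA were below 1 CPM on average in both groups, so pigment genes were close to undetected in both groups. SOX10, S100A1, CSPG4 and MCAM were detected in every library. The summed level of the 8 keratinocyte markers ran from 67.8 to 71.4 CPM in wild type and from 67.8 to 83.7 CPM in TFE3KO, nearly all of it KRT10 and KRT14, with DSG3, IVL and LORICRIN at 0. The 8 fibroblast markers summed to 13.6 to 16.5 and 12.7 to 14.7 CPM, the 7 leukocyte markers to 37.1 to 40.8 and 27.5 to 32.6 CPM (mostly CD68, with PTPRC at 0), and the 5 endothelium markers to 4.54 to 6.31 and 11.3 to 13.4 CPM, mostly KDR. In bulk RNA, fewer cells of a type and less RNA per cell cannot be told apart, and the part of these small sums in the results below was not tested.

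TFE3 itself was far lower in each library labelled TFE3KO. It stood at 125, 119 and 131 CPM in the wild-type libraries and at 12.2, 12.8 and 11.4 CPM in the TFE3KO libraries. The groups were far apart, and 9.71% of the wild-type level remained (log2 change -3.36 ± 0.067, adjusted p = 1.73e-40). A count over the whole gene includes transcripts of an edited allele, so it does not measure protein. MITF, read at 40.8, 35.8 and 32.3 CPM in wild type and 19.1, 19.5 and 17.99 CPM in TFE3KO, fell to 52.0% of its wild-type level without having been edited (log2 change -0.94 ± 0.088, adjusted p = 3.93e-13). TFEB was low throughout, at 2.01, 2.52 and 3.71 against 1.83, 1.5 and 1.14 CPM. Its fall (log2 change -0.86 ± 0.32, adjusted p = 0.0268) was no longer called when 1 of 3 libraries was left out: wild-type replicate 3 gave an adjusted p of 0.235, TFE3KO replicate 2 one of 0.0608 and TFE3KO replicate 3 one of 0.0857. TFEC had 17 counts in wild type and 3 in TFE3KO and was too low to test. No tested relative of TFE3 rose.

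**Figure D1:**
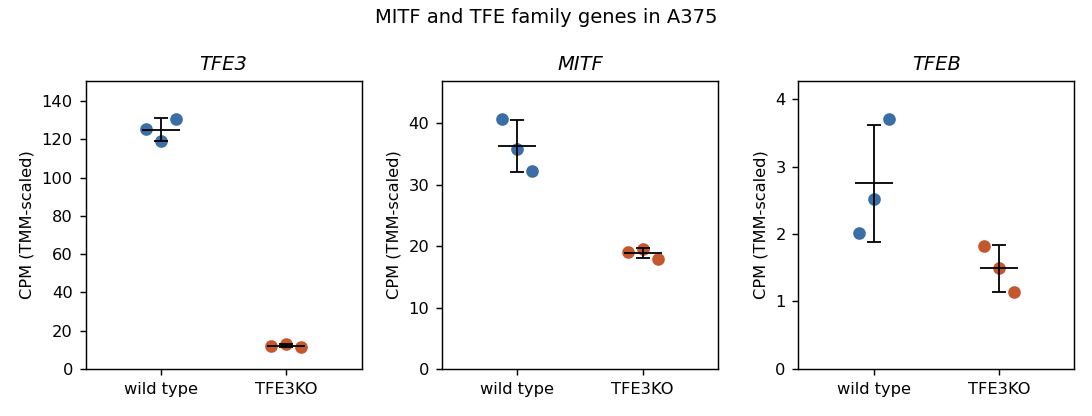
CPM of TFE3, MITF and TFEB in each A375 library (points), with the group mean and SD (line and bars); each y axis starts at 0 and has its own range. The 3 TFE3KO libraries lie between 11.4 and 12.8 CPM for TFE3, and both groups are also apart for MITF.

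The TFE3KO cells differed from wild type broadly but mostly by small amounts. Of 14012 genes tested, 2991 (21.3%) were higher and 3083 (22.0%) lower in TFE3KO, 43.3% in either direction, and the median change of all tested genes was close to 0 (log2 0.0033). Changes under 1.5-fold made up 64.2% of the calls. At least 2-fold, 715 genes (5.10%) were higher and 566 (4.04%) lower. The largest differences were falls: 6 genes with at least 5 CPM in wild type had at most 3 counts over the 3 TFE3KO libraries together, and no gene met the reverse condition.

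BASP1, a membrane-bound growth-associated protein, had 800 counts in wild type, at 11.5, 12.96 and 14.4 CPM, and none in TFE3KO, at least 301.6-fold lower when 3 counts over the group are taken as the limit of detection. SH3GL2, an endophilin of synaptic vesicle endocytosis, went from 636 counts to 0 (at least 239.8-fold lower). GAGE1, a cancer-testis antigen, went from 358 to 0 (at least 135-fold lower), although its near-identical family copies make its counts uncertain. The groups do not overlap in any of these genes, as the rule that chose them required. PTPRD, a receptor tyrosine phosphatase, kept 1 count of 613 (ratio 693, 95% interval by counting error alone 124 to 27430), and FOXP1, a forkhead transcription factor that lies close to MITF on chromosome 3, kept 3 of 1223 (ratio 461, 157 to 2239). Counting intervals and floors cover counting error only. The cytokine genes IL6 and IL1B were among the 10 largest falls and are described with their list. The other 3 were ANKRD30A (from 9.92 to 0.0427 CPM), the laminin chain gene LAMA1 on chromosome 18 (from 8.04 to 0.069 CPM) and the cancer-testis gene SPANXB1 (from 40.8 to 0.642 CPM), which also has near-identical copies. The fitted changes of PTPRD, IL6, FOXP1, ANKRD30A and LAMA1 moved by over 1.5-fold when TFE3KO replicate 1 was left out (ANKRD30A from -7.31 to -10.64, FOXP1 from -8.67 to -7.89, LAMA1 from -6.47 to -7.98, PTPRD from -8.95 to -8.28, IL6 from -8.86 to -8.11). Without TFE3KO replicate 2 they were -11.77 for FOXP1, -10.78 for PTPRD and -11.46 for IL6.

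The largest rises were smaller than the largest falls and started from low levels. FREM1, a matrix protein of the basement membrane, went from 0.308 to 8.83 CPM (log2 change 4.82 ± 0.29, adjusted p = 5.27e-20). PCDH7, a protocadherin, read 1.63, 2.82 and 3.27 CPM in wild type and 37.2, 34.3 and 34.2 CPM in TFE3KO. TESC, a calcium-binding regulator of a sodium-proton exchanger, went from 0.646 to 8.27 CPM, the sodium-calcium exchanger SLC24A3 from 1.08 to 13.1 CPM, and NRCAM, a neuronal adhesion molecule, from 1.52 to 17.8 CPM. VAT1L (from 2.73 to 31.8 CPM), RIPOR2 (from 0.548 to 6.38 CPM), the integrin chain ITGA9 (from 0.728 to 8.08 CPM) and the zinc-finger factor ZNF536 (from 0.612 to 6.29 CPM) completed the group with SPRR2D (from 1.89 to 23.2 CPM), a cornified-envelope gene whose family copies make its counts uncertain. In all 10 the 3 TFE3KO libraries lay above the 3 wild-type libraries, as the rule that chose them required.

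By amount of transcript, the 5 largest gains among genes changed at least 2-fold began with 2 secreted protease inhibitors. SERPINE2, an inhibitor of thrombin and plasminogen activators, rose from 1484 to 4070.2 CPM. TIMP3, an inhibitor of metalloproteinases bound to the matrix, rose from 602 to 2137 CPM, with 615, 585 and 606 CPM in wild type and 2162, 2118 and 2131 CPM in TFE3KO. GNAS, the stimulatory G protein alpha subunit, rose from 732 to 2397 CPM, the class II invariant chain CD74 from 936 to 2355 CPM, and the quinone reductase NQO1 from 332 to 752 CPM. The largest losses were the neutrophil chemokines CXCL1 (from 784 to 65.1 CPM) and CXCL8 (from 549 to 83.7 CPM), the chromatin protein HMGA2 (from 581 to 176 CPM), the complement component C3 (from 492 to 11.97 CPM) and the keratin KRT80 (from 496 to 155 CPM). C3 read 475, 490.1 and 510.4 CPM in wild type and 12.5, 12.3 and 11.1 CPM in TFE3KO, a fall of 5.35 on the log2 scale (SE 0.050, adjusted p = 1.67e-55).

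**Figure D2:**
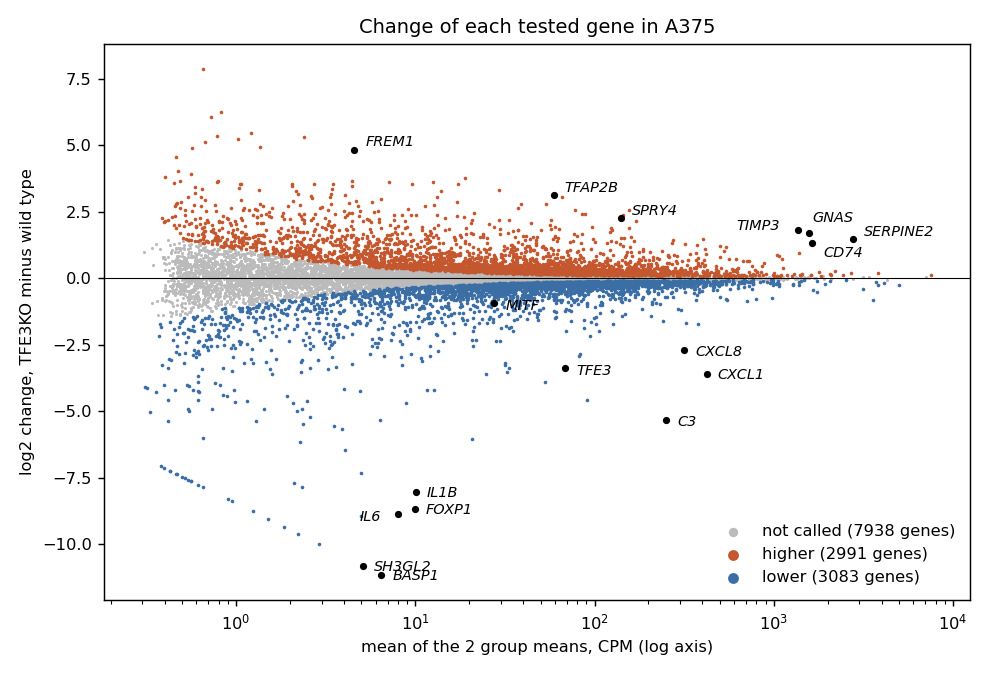
Log2 change (TFE3KO minus wild type) of every tested gene against the mean of both group means in CPM on a log axis, coloured by call (2991 higher, 3083 lower). Named points include BASP1, SH3GL2, FOXP1, IL6 and IL1B at the bottom, where the fitted value depends on the few counts left in TFE3KO.

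Secreted cytokines fell almost as a group. Of the 18 tested members of a list of 22 cytokines and their regulators, 17 were lower and 1 higher in TFE3KO, with a median log2 change of -1.69 beside 0.0033 over all tested genes and shares of 22.0% lower and 21.3% higher. The libraries of both groups were apart for all 18, where 25.4% of tested genes lay wholly higher and 25.4% wholly lower. The list's sum per library ran from 1790.5 to 1869 CPM in wild type and from 357 to 366 CPM in TFE3KO. IL6, the acute-phase interleukin, stood at 15.5, 14.8 and 17.5 CPM in wild type, 986 counts in all, and at 0, 0.0937 and 0 CPM in TFE3KO, 2 counts (ratio 558, 95% counting interval 154 to 4611). IL1B, the inflammasome cytokine interleukin-1 beta, stood at 18.02, 19.9 and 22.2 against 0.0641, 0 and 0.171 CPM, with 1241 and 5 counts and a log2 change of -8.02, or -8.85 without TFE3KO replicate 3. In both genes at least 1 TFE3KO library had no count.

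The neutrophil chemokines kept a measurable level. CXCL1 read 779, 794 and 778 CPM in wild type and 63.8, 70.9 and 60.7 CPM in TFE3KO (log2 change -3.59 ± 0.040, adjusted p = 2.35e-50). CXCL8 read 536, 550.2 and 562 against 81.8, 77.97 and 91.5 CPM (log2 change -2.72 ± 0.041, adjusted p = 7.54e-42), so 15.2% of its wild-type mean remained. CCL2, the monocyte chemokine, read 38.5, 48.6 and 49.8 against 4.55, 3.37 and 3.08 CPM (log2 change -3.59 ± 0.12, adjusted p = 8.51e-28). No TFE3KO library came near the lowest wild-type library for any of them. The only rise was CX3CL1, whose 2.28 log2 change rested on under 1 CPM in every library and was no longer called without wild-type replicate 1 (adjusted p = 0.0630), and reached 3.24 without wild-type replicate 3. CCL5 and IL33 were at 0 in all 6 libraries, and CXCL10 and TSLP were too low to test.

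**Figure D3:**
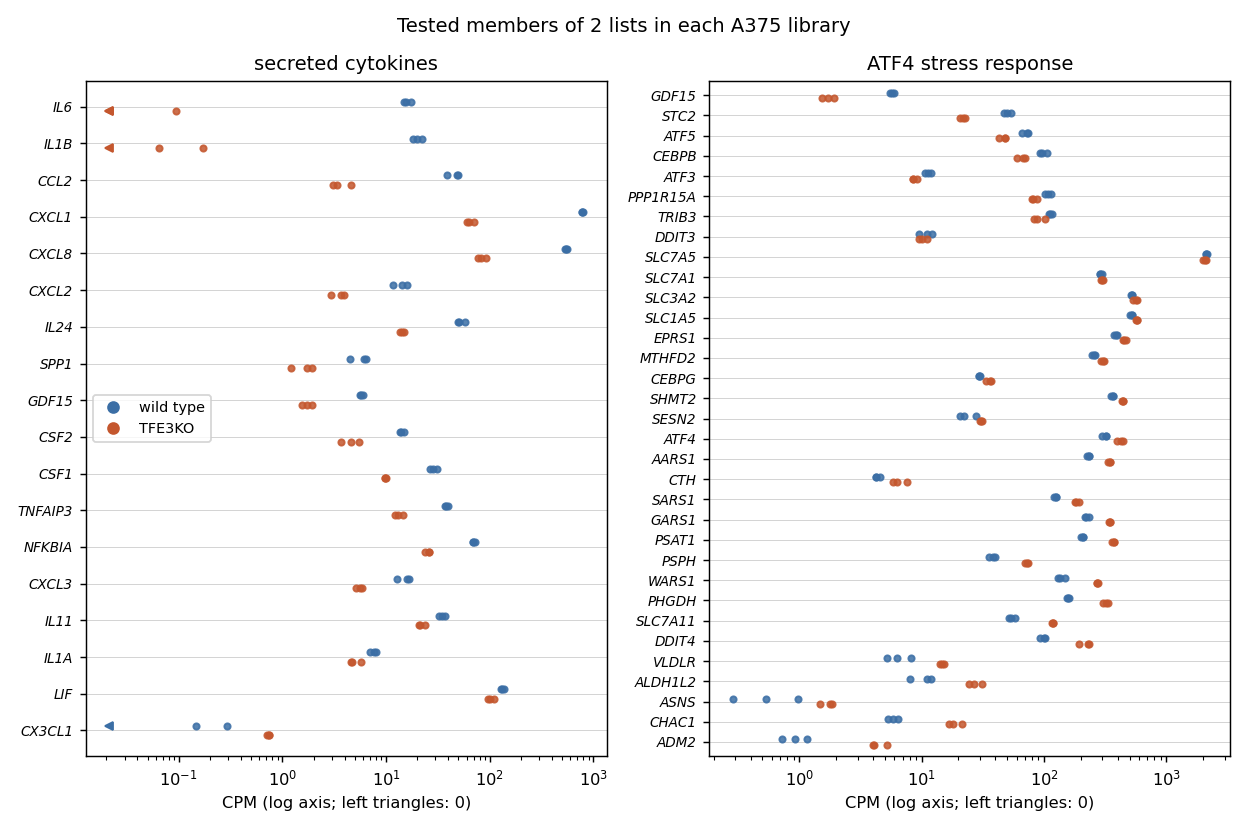
CPM on a log axis of each tested member of the secreted cytokine list (left, 18 genes) and the ATF4 stress response list (right, 33 genes), with a point for each wild-type (blue) and TFE3KO (red) library and left-pointing triangles for libraries at 0. On the left the TFE3KO points lie to the left of wild type for all but CX3CL1; on the right they lie to the right for 23 called genes.

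Markers of the invasive melanoma state were lower too. Of 40 tested members, 29 fell and 6 rose (72.5% and 15%, beside 22.0% and 21.3% of all tested genes). Their median log2 change was -0.71. AXL, the receptor tyrosine kinase that gives the AXL-high state its name, read 702, 664 and 699 CPM in wild type and 393, 393 and 414 CPM in TFE3KO (log2 change -0.78 ± 0.032, adjusted p = 3.58e-27). EGFR, the epidermal growth factor receptor, read 74.1, 74.9 and 69.8 against 26.6, 23.2 and 22.4 CPM (log2 change -1.59 ± 0.070, adjusted p = 1.30e-25). SOX9, a neural crest factor linked to low-MITF melanoma, went from 10.1 to 1.88 CPM, the lymphangiogenic factor VEGFC from 47.1 to 9.24 CPM, and the guidance ligand SLIT2 from 110.1 to 27.8 CPM. Both groups were apart in each of these genes. WNT5A, also a marker of that state, was not called, with 209, 211 and 216 CPM in wild type and 208, 212 and 228 CPM in TFE3KO (adjusted p = 0.64). The 6 rises were headed by IGFBP5, which binds insulin-like growth factors (from 4.996 to 24.2 CPM), S100A2 (from 30.6 to 89.3 CPM), TWIST1 (from 12.3 to 22.7 CPM), TNC (from 734 to 1342 CPM) and the ecto-nucleotidase NT5E (from 48.5 to 84.8 CPM).

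Receptors and ligands changed in both directions. Among receptor tyrosine kinases and growth factors, 15 of 29 tested genes fell and 10 rose (51.7% and 34.5%, beside 22.0% and 21.3% of all tested genes). NRG1, a ligand of ERBB3, went from 24.04 to 4.68 CPM, while ERBB3 itself, a receptor found on differentiated melanocytic cells, rose from 146 to 401 CPM. MET, the hepatocyte growth factor receptor, fell from 276 to 139.5 CPM, PDGFB from 5.15 to 1.21 CPM and the ephrin receptor EPHB2 from 54.99 to 18.95 CPM. TGFA, a ligand of EGFR, rose from 223 to 527 CPM, IGF1R from 116 to 208 CPM, FGFR3 from 5.89 to 18.2 CPM and PDGFRA from 0.645 to 2.28 CPM. Of 28 tested genes of TGF-beta, BMP and YAP output, 15 fell and 7 rose (53.6% and 25%, median log2 change -0.35). The ligands TGFB2 (from 6.46 to 1.82 CPM) and TGFB1 (from 187 to 109 CPM) and their receptor TGFBR2 (from 103 to 44.1 CPM) were lower, as was the YAP target CCN1 (from 176 to 75.5 CPM). The BMP ligand BMP7 rose from 0.338 to 3.78 CPM, the YAP relative WWTR1 from 427 to 701 CPM, and the kinase LATS2, on chromosome 13, from 37.99 to 53.7 CPM. In the 15-library fit used at the end, ANKRD1 (log2 change 0.66), ID2 (0.84) and PMEPA1 (0.47) of this list were also called higher in A375. AMOTL2 (-0.34) and AJUBA (-0.68) were called lower in that fit, so members of the list went both ways.

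Matrix genes changed in both directions. Of 45 tested extracellular matrix genes, 24 fell and 18 rose, so 42 were called, beside 43.3% of all tested genes. FN1, which encodes fibronectin, read 298, 309 and 289 CPM in wild type and 109.6, 108 and 119 CPM in TFE3KO (log2 change -1.41 ± 0.040, adjusted p = 9.57e-34). The fibril-associated collagen COL12A1 fell from 149.5 to 54.8 CPM, COL1A1 from 4.68 to 1.63 CPM, the nidogen NID2 from 4.1 to 0.484 CPM and osteopontin, SPP1, from 5.65 to 1.62 CPM. Among the rises were the laminin chain LAMA4 (from 46.8 to 243 CPM), versican, VCAN (from 2.73 to 14.1 CPM), the collagen COL9A3 (from 215 to 593 CPM) and SPARC (from 944 to 1816 CPM). LAMA4 read 46.9, 47.9 and 45.6 against 248, 234 and 246 CPM, with no overlap.

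Adhesion receptors also changed in both directions. Of 31 tested integrin and focal adhesion genes, 11 rose and 13 fell (35.5% and 41.9%, beside 21.3% and 22.0% of all tested genes). ITGB3, the beta chain of the vitronectin receptor, read 74.6, 75.2 and 68.2 CPM in wild type and 216, 201 and 203 CPM in TFE3KO (log2 change 1.51 ± 0.046, adjusted p = 1.61e-32). ITGA1, a collagen receptor chain, rose from 53.8 to 109 CPM and the laminin receptor chain ITGA6 from 304 to 452 CPM, while its partner ITGB4 fell from 31.00 to 11.03 CPM, talin 2, TLN2, from 49.7 to 14.3 CPM, vinculin, VCL, from 171 to 101 CPM and the hyaluronan receptor CD44 from 1217 to 732 CPM. ITGB1, the common beta chain, was not called (391 and 402 CPM, adjusted p = 0.388). Actin and contractile genes fell in 9 of 18 (50%) and rose in 2 (11.1%), or 4 without TFE3KO replicate 3. The falls included ACTG1 (from 3577 to 2718 CPM), non-muscle myosin MYH9 (from 863 to 658 CPM), TPM4 (from 558 to 409.9 CPM) and TPM1 (from 415 to 335 CPM).

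Of 10 tested EMT factors and cadherins, 5 rose and 4 fell (50% and 40%, beside 21.3% and 22.0% of all tested genes). The repressors ZEB2 (from 15.9 to 33.7 CPM), SNAI2 (from 0.532 to 2.24 CPM) and SNAI1 (from 18.6 to 27.1 CPM) rose with TWIST1, while ZEB1 was not called (37.4 and 37.9 CPM, adjusted p = 0.843). N-cadherin, CDH2, fell from 272 to 159 CPM and CDH19 from 53.4 to 32.2 CPM; both genes lie on chromosome 18, and without chromosomes 13 and 18 the falls of this list number 2.

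Lineage genes of the neural crest rose more often than they fell, while MITF fell. Of 28 tested neural crest and lineage genes, 16 were higher and 7 lower (57.1% and 25%, beside 21.3% and 22.0% of all tested genes). Their median log2 change was 0.38. TFAP2B, an AP-2 factor of the neural crest, read 11.7, 11.6 and 13.6 CPM in wild type and 109.6, 102 and 107 CPM in TFE3KO (log2 change 3.11 ± 0.071, adjusted p = 5.59e-38). SOX10, which is needed for the melanocyte and Schwann cell lineages, read 525, 512 and 542 against 867, 796 and 813 CPM (log2 change 0.65 ± 0.032, adjusted p = 9.15e-24). S100B, the calcium-binding protein used as a melanoma marker, read 2.68, 3.2 and 3.03 against 22.2, 17.9 and 18.96 CPM (log2 change 2.73 ± 0.15, adjusted p = 4.15e-22). In all of these the lowest TFE3KO library was above the highest wild-type library. SOX5 rose from 75.7 to 215 CPM, SOX4 from 9.75 to 18.6 CPM and nestin, NES, from 237 to 443 CPM, whereas the nerve growth factor receptor NGFR fell from 119.7 to 60.7 CPM, TFAP2A from 20.1 to 11.96 CPM, L1CAM from 254 to 113 CPM and S100A4 from 69.6 to 27.3 CPM.

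Of 30 tested melanocyte differentiation genes, 12 rose and 5 fell (40% and 16.7%, beside 21.3% and 22.0% of all tested genes). Their median log2 change was -0.0058. The 10 remaining members, TYR, DCT and TYRP1 among them, were too low to test, so the list speaks mainly for factors and receptors rather than pigment enzymes. Besides S100B and ERBB3, the rises included the Wnt factor LEF1 (log2 change 1.28) and the endothelin receptor EDNRB, on chromosome 13 (from 6.52 to 22.8 CPM). OCA2, a melanosome transporter, was at 0.336, 0.728 and 0.537 against 2.37, 1.31 and 0.857 CPM and was no longer called without TFE3KO replicate 1 (adjusted p = 0.168). Melanophilin, MLPH, fell from 19.5 to 9.6 CPM and QPCT from 12.5 to 7.65 CPM. BCL2, a survival gene known as an MITF target and located on chromosome 18, fell from 17.7 to 12.8 CPM. GPNMB, a lysosomal and melanosomal glycoprotein, was not called (55.8 and 53.7 CPM, adjusted p = 0.515). Of the 8 tested melanocyte and melanoma markers, 5 rose and 1 (MITF) fell; CSPG4, a surface proteoglycan, went from 353 to 708 CPM and S100A1 from 13.5 to 94.3 CPM, while the rise of MCAM (from 280.0 to 299 CPM) was no longer called without wild-type replicate 1 (adjusted p = 0.0513), wild-type replicate 2 (0.100) or TFE3KO replicate 1 (0.191).

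Targets of ATF4, the factor translated when amino acids run short or proteins misfold, were mostly higher. Of 33 tested members of the ATF4 stress response list, 23 rose and 7 fell (69.7% and 21.2%, beside 21.3% and 22.0% of all tested genes). Their median log2 change was 0.37. ATF4 transcript read 322, 299.8 and 324 CPM in wild type and 426, 444 and 396 CPM in TFE3KO (log2 change 0.42 ± 0.037, adjusted p = 1.59e-13). CHAC1, which breaks down glutathione, read 5.85, 6.41 and 5.27 against 21.5, 17.9 and 16.8 CPM (log2 change 1.69 ± 0.13, adjusted p = 8.32e-16). ASNS, asparagine synthetase, was low in this line, at 0.288, 0.971 and 0.537 against 1.86, 1.78 and 1.48 CPM (log2 change 1.51 ± 0.45, adjusted p = 0.00476). ALDH1L2, a mitochondrial one-carbon enzyme, rose from 10.3 to 27.4 CPM, the peptide hormone gene ADM2 from 0.935 to 4.45 CPM and the lipoprotein receptor VLDLR from 6.54 to 14.7 CPM. The groups did not overlap in any of these genes.

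The falls in the ATF4 list were found in genes of several kinds. GDF15, a stress-induced cytokine, fell from 5.73 to 1.72 CPM, STC2 from 50.2 to 21.7 CPM, ATF5 from 70.6 to 46.4 CPM and CEBPB from 98.2 to 65.96 CPM; the fall of ATF3 (from 11.3 to 8.68 CPM) was no longer called when wild-type replicate 1 (adjusted p = 0.0674) was left out, nor without the first (0.0567) or second (0.0528) TFE3KO replicate. DDIT3, the CHOP factor, was not called (10.9 and 10.2 CPM, adjusted p = 0.568). Amino acid carriers rose in 10 of 21 and fell in 2 (47.6% and 9.52%, beside 21.3% and 22.0% of all tested genes). Without wild-type replicate 3 or TFE3KO replicate 2, 1 fell. SLC7A11, the cystine importer, read 51.4, 58.05 and 54.01 against 119, 118 and 117 CPM (log2 change 1.11 ± 0.053, adjusted p = 3.51e-24), and SLC1A4, a neutral amino acid carrier, rose from 37.04 to 117 CPM. In the unfolded protein response list 9 of 21 rose and 1 fell (42.9% and 4.76%), all by small amounts. The largest change was that of XBP1 (from 52.6 to 67.4 CPM).

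Genes that report ERK signalling, which is driven by mutant BRAF in this line, were higher for 11 of 20 tested members and lower for 4. These were 55% and 20%, beside 21.3% and 22.0% of all tested genes. The median log2 change of the list was 0.39. SPRY4, a feedback inhibitor of the pathway, read 45.5, 48.2 and 52.4 CPM in wild type and 252, 215 and 228 CPM in TFE3KO (log2 change 2.25 ± 0.055, adjusted p = 1.16e-28). DUSP6, the ERK phosphatase, read 134, 139 and 146 against 198, 206 and 194 CPM (log2 change 0.51 ± 0.041, adjusted p = 1.90e-15). SPRY2, on chromosome 13, rose from 119.7 to 254 CPM, SPRY1 from 1.63 to 4.48 CPM and the immediate early gene EGR1 from 10.1 to 20.6 CPM. EPHA2 fell from 704 to 400.0 CPM, DUSP5 from 31.5 to 22.1 CPM, and the AP-1 factor FOSL1 from 649 to 486 CPM. CCND1, which encodes cyclin D1, was not called (928 and 963 CPM, adjusted p = 0.134), but was called higher without TFE3KO replicate 1 (adjusted p = 0.0376).

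**Figure D4:**
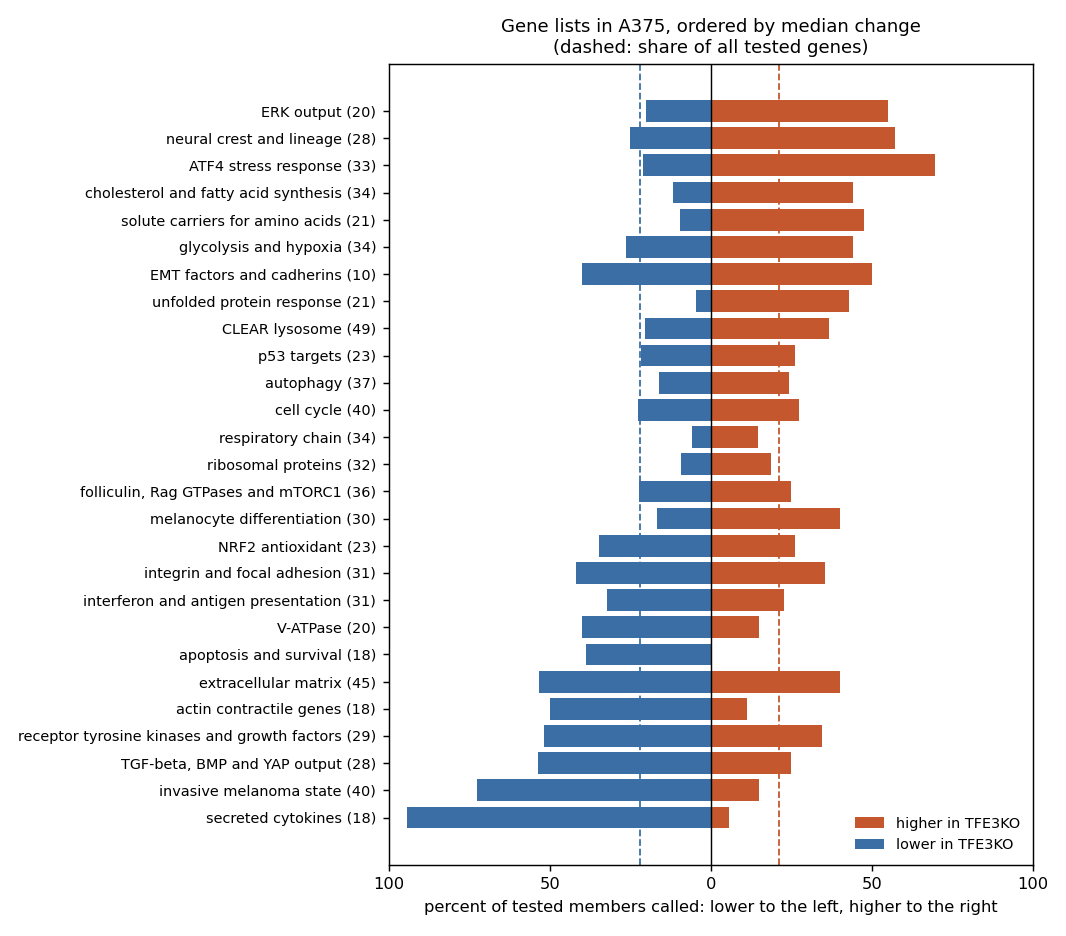
Percent of tested members called higher (red, to the right) or lower (blue, to the left) in each gene list other than the 5 cell type marker lists, ordered by median log2 change, with the number tested in brackets. Dashed lines mark 21.3% and 22.0% of all tested genes; secreted cytokines lie at the bottom, with 17 of 18 lower, and the ERK output list at the top.

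Lysosome genes, the best-known targets of TFE3, more often rose than fell. The CLEAR list is named for coordinated lysosomal expression and regulation. Of its 49 tested genes, 18 were higher and 10 lower (36.7% and 20.4%, beside 21.3% and 22.0% of all tested genes). The falls were thus near the share of all genes. The median log2 change was 0.072, and 21 genes of the list were not called. In the 15-library fit used at the end, 12 were higher and 10 lower in A375, where 16.3% and 15.9% of all genes were. The list's sum per library was 4143 to 4182 CPM in wild type and 4305 to 4363 CPM in TFE3KO. LAMP1, an abundant membrane glycoprotein of the lysosome, read 257, 273 and 266 CPM in wild type and 330.0, 346 and 358 CPM in TFE3KO (log2 change 0.38 ± 0.035, adjusted p = 5.35e-13); it lies on chromosome 13. Cathepsin Z, CTSZ, rose from 134 to 221 CPM, beta-glucuronidase, GUSB, from 60.03 to 83.2 CPM, and cathepsin D, CTSD, from 173 to 211 CPM. The falls were led by cathepsin S, CTSS, a protease of antigen-presenting cells, which read 55.2, 58.1 and 57.5 against 7.34, 5.34 and 5.6 CPM (log2 change -3.19 ± 0.096, adjusted p = 1.23e-32). Cathepsin K, CTSK, was low and fell from 2.39 to 0.884 CPM, with a log2 change of -2.04 instead of -1.42 without TFE3KO replicate 2. Cathepsin C, CTSC, fell from 428 to 288 CPM, acid phosphatase ACP5 from 12.2 to 7.73 CPM, and NPC1, a cholesterol exporter on chromosome 18, from 75.8 to 51.95 CPM. The calcium channel gene MCOLN1 was not called (30.6 and 31.5 CPM, adjusted p = 0.739). HEXA rose from 56.7 to 63.8 CPM, a call that ended without wild-type replicate 1 (adjusted p = 0.0658), wild-type replicate 2 (0.0839) or TFE3KO replicate 2 (0.315).

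The palindrome TCACGTGA and its longer form, with a further G before it and C after it, are sequences the family is known to bind at such genes. Both were searched in the 250 bases before to 50 bases after each gene start in RefSeq's GRCh38.p14; a palindrome reads the same on both strands, and every copy of the longer form also holds the shorter. Of the 50 CLEAR list genes, 33 had a promoter of full length there. TCACGTGA was found in 6 of these 33 (18.2%), against 1.04% of 27305 promoters of the same length. It was present in 1.61% of the promoters of genes called higher, 1.40% of those called lower and 1.85% of all 10997 tested genes that had a promoter in the table. The longer form was found in 3 of 33 (9.09%), against 0.755% of tested genes and 0.381% of all promoters. The CLEAR list holds lysosome genes already known as targets of the family, so its high share is not a finding of these data. These matches describe letters in a window and do not show binding. The stretches around the match in the called CLEAR list genes that hold one are shown 5′ to 3′ on the gene's strand, with the match (the longer form where present) in capitals, because they carry the family's site and yet moved in both directions. The windows of LAMP1, GAA and PLD3 hold 2 copies of TCACGTGA each, of which 1 is shown.
LAMP1 (chr13:113297185-113297238, plus strand): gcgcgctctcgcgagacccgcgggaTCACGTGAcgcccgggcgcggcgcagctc
GAA (chr17:80101478-80101537, plus strand): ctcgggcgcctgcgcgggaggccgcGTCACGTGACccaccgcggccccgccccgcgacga
CTSA (chr20:45891284-45891334, plus strand): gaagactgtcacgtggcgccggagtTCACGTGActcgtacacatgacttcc
PLD3 (chr19:40348533-40348592, plus strand): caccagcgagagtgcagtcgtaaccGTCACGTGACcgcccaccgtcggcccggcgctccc
CLN3 (chr16:28492059-28492086, minus strand): gcgggtgctgTCACGTGAtccgacaaac
Beside these sequences, the acid alpha-glucosidase gene GAA rose from 42.1 to 49.6 CPM (log2 change 0.23), the protective protein cathepsin A, CTSA, from 104 to 121 CPM (0.23), and the lysosomal nuclease PLD3 from 47.6 to 55.3 CPM (0.22). CLN3, a lysosomal membrane protein whose match spans the gene start, fell from 34.99 to 28.02 CPM (-0.32). The change of LAMP1 is given above.

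The V-ATPase is the proton pump that acidifies the lysosome. Of 20 tested V-ATPase genes, 8 were lower and 3 higher (40% and 15%, beside 22.0% and 21.3% of all tested genes; median log2 change -0.13). Without TFE3KO replicate 2, 5 were lower, a share near that of all genes. The falls were small, from ATP6V0B (from 189.8 to 158 CPM) and ATP6V1G1 (from 54.99 to 45.4 CPM) to TCIRG1 (from 49.7 to 40.8 CPM), while the low ATP6V1C2 (from 1.47 to 0.687 CPM) was no longer called when wild-type replicate 3 (adjusted p = 0.236) was left out, nor without the first (0.156) or second (0.0660) TFE3KO replicate. ATP6V0A4, an alternative a-subunit, rose from 5.32 to 10.6 CPM, and the accessory proteins ATP6AP1 (from 102 to 119 CPM) and ATP6AP2 (from 81.2 to 93.7 CPM) rose slightly. Neither ATP6V0D1 nor ATP6V1H was called (adjusted p = 0.737 and 0.898).

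Of 37 tested autophagy genes, 9 rose and 6 fell (24.3% and 16.2%, near the shares of all tested genes, 21.3% and 22.0%), or 3 fell without wild-type replicate 3. SQSTM1, the p62 cargo receptor, read 913, 903 and 906 CPM in wild type and 500.1, 522 and 499 CPM in TFE3KO (log2 change -0.84 ± 0.030, adjusted p = 9.69e-30). The cargo receptor OPTN fell from 28.2 to 13.9 CPM and the conjugation factor ATG12 from 103 to 67.6 CPM. The kinase ULK1, which starts autophagosome formation, rose from 41.4 to 58.2 CPM, and the ATG8 family members GABARAP from 78.8 to 96.8 CPM and GABARAPL2 from 54.2 to 65.1 CPM. MAP1LC3B, the LC3 gene, was not called (77.9 and 74.02 CPM, adjusted p = 0.269).

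In the circuit that holds TFE3 in the cytoplasm, calls were about as frequent as among all genes. Of 36 tested folliculin, Rag GTPase and mTORC1 genes, 9 rose and 8 fell (25% and 22.2%, beside 21.3% and 22.0% of all tested genes), or 5 without TFE3KO replicate 1. RRAGD, a Rag GTPase known as a target of the family, read 6.76, 4.66 and 6.45 against 8.75, 9.42 and 10.8 CPM and rose (log2 change 0.69 ± 0.16, adjusted p = 3.82e-04). FLCN, folliculin, read 26.2, 25.5 and 29.5 against 21.8, 20.1 and 21.1 CPM and fell (log2 change -0.36 ± 0.090, adjusted p = 7.56e-04). Its partner FNIP1 fell from 21.1 to 17.3 CPM, a call that ended without wild-type replicate 3 (adjusted p = 0.0540) or TFE3KO replicate 1 (0.137), and RRAGC from 41.5 to 35.6 CPM, which was not called without TFE3KO replicate 2 (0.0770). FNIP2 was not called (adjusted p = 0.932). The negative regulators of mTORC1 DDIT4 (from 98.3 to 218 CPM), SESN3 (from 1.77 to 6.39 CPM) and SESN2 (from 23.5 to 30.5 CPM) rose.

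In lipid metabolism, 15 of 34 tested cholesterol and fatty acid synthesis genes rose and 4 fell (44.1% and 11.8%). Of all tested genes, 21.3% rose and 22.0% fell. The median log2 change of the list was 0.16. SREBF1, a lipogenic transcription factor, read 98.7, 110.0 and 112 CPM in wild type and 197, 199 and 186 CPM in TFE3KO (log2 change 0.86 ± 0.045, adjusted p = 1.13e-22), with no overlap between the groups. Its brake INSIG1 rose from 12.7 to 22.9 CPM. HMGCS1 was not called (adjusted p = 0.565), and DHCR7 fell from 43.1 to 32.5 CPM.

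Of 34 tested glycolysis and hypoxia genes, 15 were higher and 9 lower (44.1% and 26.5%, beside 21.3% and 22.0% of all tested genes). P4HA1, a collagen prolyl hydroxylase, rose from 40.04 to 70.7 CPM and PFKFB3 from 92.01 to 141 CPM, while carbonic anhydrase CA9 fell from 14.8 to 3.96 CPM. Of 34 tested respiratory chain genes 5 rose and 2 fell (14.7% and 5.88%), below the shares of all tested genes. There were 9 rises without TFE3KO replicate 3 and 1 fall without wild-type replicate 3. NDUFA4 rose from 87.2 to 103 CPM. In the NRF2 list 6 of 23 rose and 8 fell (26.1% and 34.8%, beside 21.3% and 22.0% of all tested genes). NQO1 read 329.7, 323 and 343 against 739, 753 and 763 CPM (log2 change 1.18 ± 0.032, adjusted p = 5.22e-35), whereas the aldo-keto reductase AKR1C1, whose close relatives make its counts uncertain, fell from 5.96 to 0.566 CPM and ferritin heavy chain, FTH1, from 1009 to 586 CPM.

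Of 40 tested cell cycle genes, 11 rose and 9 fell (27.5% and 22.5%, beside 21.3% and 22.0% of all tested genes; median log2 change 0.037). MKI67, the Ki-67 antigen, went from 539 to 648 CPM, and the kinase inhibitor CDKN1B from 33.9 to 50.1 CPM. CDKN1A, which encodes p21, was not called (231 and 234 CPM, adjusted p = 0.642). Of 23 tested p53 targets, 6 rose and 5 fell (26.1% and 21.7%, near the shares of all tested genes). MDM2 was not called (adjusted p = 0.322). Of 18 tested apoptosis and survival genes 7 fell (38.9%, beside 22.0% of all tested genes) and 0 rose. The falls included BIRC3 (from 38.5 to 11.9 CPM), BID (from 42.6 to 24.8 CPM), BIRC2 (from 162 to 117 CPM) and PMAIP1, on chromosome 18 (from 49.3 to 32.3 CPM). Of 32 tested ribosomal protein genes 6 were called higher and 3 lower (18.8% and 9.38%, beside 21.3% and 22.0% of all tested genes). None had a log2 change beyond 0.13 in size. Without TFE3KO replicate 3, 11 were higher. The falls numbered 1 without wild-type replicate 1 or 3 and 5 without TFE3KO replicate 1.

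Of 31 tested interferon and antigen presentation genes, 7 rose, 10 fell and 14 were not called (22.6% and 32.3%, beside 21.3% and 22.0% of all tested genes). Class II genes were among the rises, and so was the interferon-induced gene OAS1 (from 6.98 to 10.03 CPM). ISG15, IFIT1, IFIT2, IFI6, STAT2, IRF9 and MX1 were not called. IRF1 fell from 34.99 to 18.2 CPM, IFI44 from 25.3 to 13.4 CPM and IFIT3 from 18.5 to 10.97 CPM. CD274, which encodes PD-L1, read 4.36, 5.1 and 7.37 against 3.04, 4.78 and 2.74 CPM with an overlap between the groups, and its fall (adjusted p = 0.0122) was no longer called without wild-type replicate 3 (0.189) or when TFE3KO replicate 1 was left out (0.0550), and stood at the threshold without TFE3KO replicate 3. CIITA, the master regulator of class II genes, read 75.02, 77.7 and 80.04 against 149, 140.3 and 145 CPM (log2 change 0.90 ± 0.047, adjusted p = 1.78e-22), and CD74 938, 929 and 939.6 against 2319, 2416 and 2330.4 CPM (log2 change 1.33 ± 0.027, adjusted p = 2.64e-40). HLA-DRA rose from 24.3 to 71.8 CPM, HLA-DRB1 from 66.6 to 246 CPM and HLA-B from 60.6 to 129.7 CPM. In the same chromosome region RPS18, a ribosomal protein gene used by every cell, and HLA-E were listed at 0 in all 6 libraries, so the values of HLA genes in these files are uncertain. CD74 lies on chromosome 5 and CIITA on chromosome 16, outside that region.

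Changes were not spread evenly over the chromosomes. Of all tested genes, 21.3% were higher and 22.0% lower. On chromosome 13, 139 of 259 tested genes were higher and 9 lower (median log2 change 0.31). On chromosome 18, 102 of 198 were lower and 17 higher (median -0.26). The medians of the other chromosomes lay between -0.043 and 0.035. Along chromosome 18, the 25 tested genes from PIGN to LINC00909 had a median of -0.62 with 21 lower, and those from ANKRD30B to CDH2 a median of -0.54 with 19 lower. On chromosome 13, the 25 genes from PSPC1 to CENPJ had a median of 0.49 with 21 higher and 1 lower. Windows of 25 genes elsewhere shifted too. The highest median, 0.51, was on chromosome 6, from RIPOR2 to BTN3A2, with 6 higher and 1 lower. HCG11 to ZSCAN16-AS1 on chromosome 6 (0.47, 3 higher, 1 lower) and PCDHA5 to PCDHB15 on chromosome 5 (0.46, 10 higher, 0 lower) followed. Falls included MYH1 to ZSWIM7 on chromosome 17 (-0.36, 11 lower, 2 higher) and ZNF229 to FOSB on chromosome 19 (-0.32, 14 lower, 2 higher). Of the genes named above, LAMP1, EDNRB, SPRY2 and LATS2 lie on chromosome 13, and NPC1, CDH2, CDH19, LAMA1, BCL2 and PMAIP1 on chromosome 18. These moved in the direction of their chromosome, and the part of the region in their changes was not tested. Without chromosomes 13 and 18, a count chosen after seeing the data, 2835 genes were higher and 2972 lower.

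The difference between TFE3KO and wild type was set against that in SKMEL28, where MITFKO cells with and without an edited TFE3 gene were compared. Each is called an effect below, and any other difference between edited and control cells is part of it. Of 15093 genes tested in 15 libraries, 5693 (37.7%) had effects that differed between the lines, 2907 (19.3%) with the higher effect in A375 and 2786 (18.5%) with the lower. The effects share no control library. Line, medium and MITF status go together in this comparison, so their parts in a difference cannot be told apart. In this fit, 2459 genes (16.3%) were called higher and 2401 (15.9%) lower in A375, and 3202 (21.2%) higher and 3247 (21.5%) lower in SKMEL28. Of the genes called higher in A375, 757 were also called higher in SKMEL28 (30.8% of the A375 list, 23.6% of the SKMEL28 list) and 585 were called lower (23.8% of the A375 list). Of those called lower in A375, 653 were lower in SKMEL28 (27.2% and 20.1%) and 573 higher (23.9% of the A375 list).

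MITF and many invasive markers differed between the lines. MITF transcript fell in A375 and had a log2 change of 0.73 in SKMEL28, where the gene is edited (difference -1.68 ± 0.095, adjusted p = 1.25e-13). TFE3 fell in both, more in A375 (difference -1.55 ± 0.12, adjusted p = 1.89e-11); in SKMEL28 its change was -2.97 in clone 3 and -0.67 in clone 13. Of 41 invasive state genes tested in the 15 libraries, 23 had a lower and 5 a higher effect in A375. These were 56.1% and 12.2%, beside 18.5% and 19.3% of all genes. AXL showed a difference of -4.70 ± 0.44 (adjusted p = 1.16e-09), but it was near the limit of detection in SKMEL28, at 0.0476 CPM in MITFKO, 1.19 CPM in clone 3 and 0.596 CPM in clone 13, so the size of that difference rests on a few counts. CCN1 differed by -3.15 and CXCL8 by -3.41. Among 19 cytokine list genes, 9 had a lower and 3 a higher effect in A375 (47.4% and 15.8%). The difference of IL6, which averaged 0.165 CPM in SKMEL28 MITFKO, 0.272 CPM in clone 3 and 0 CPM in clone 13, was not called (adjusted p = 0.9998).

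The ATF4 list went opposite ways in both lines. In the 15-library fit, 21 of its 34 tested genes rose and 7 fell in A375, while 1 rose and 28 fell in SKMEL28, and 29 genes (85.3%) had a higher effect in A375 against 19.3% of all genes. ASNS differed by 3.42 ± 0.40 (adjusted p = 8.15e-08), with -1.91 in SKMEL28, ATF4 by 1.18 ± 0.066 (adjusted p = 2.10e-14) and CHAC1 by 2.75 ± 0.17 (adjusted p = 1.03e-13). ERK output genes showed the same division on a smaller scale: 12 of 20 (60%) had a higher and 1 (5%) a lower effect in A375, beside 19.3% and 18.5% of all genes. SPRY4 differed by 2.44 and DUSP6 by 1.12. Lysosome and V-ATPase genes leaned the other way, with a lower effect in A375 for 18 of 49 and 13 of 22 (36.7% and 59.1%, beside 18.5% of all genes) and a higher effect for 4 and 0 (19.3% of all genes); ATP6V0B differed by -0.69, while LAMP1 (adjusted p = 0.0894) was not called. Of 32 ribosomal protein genes 26 had a lower effect in A375, beside 18.5% of all genes. In SKMEL28, 29 of them rose, beside 21.2% of all genes. Cathepsin S was close to undetected in SKMEL28, at 0.317 CPM in MITFKO, 0.249 CPM in clone 3 and 0 CPM in clone 13. It was called lower there as well (log2 change -3.03, adjusted p = 0.0046), a fitted fall that rests on a few counts. The difference between lines was not called (adjusted p = 0.676).

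**Figure D5:**
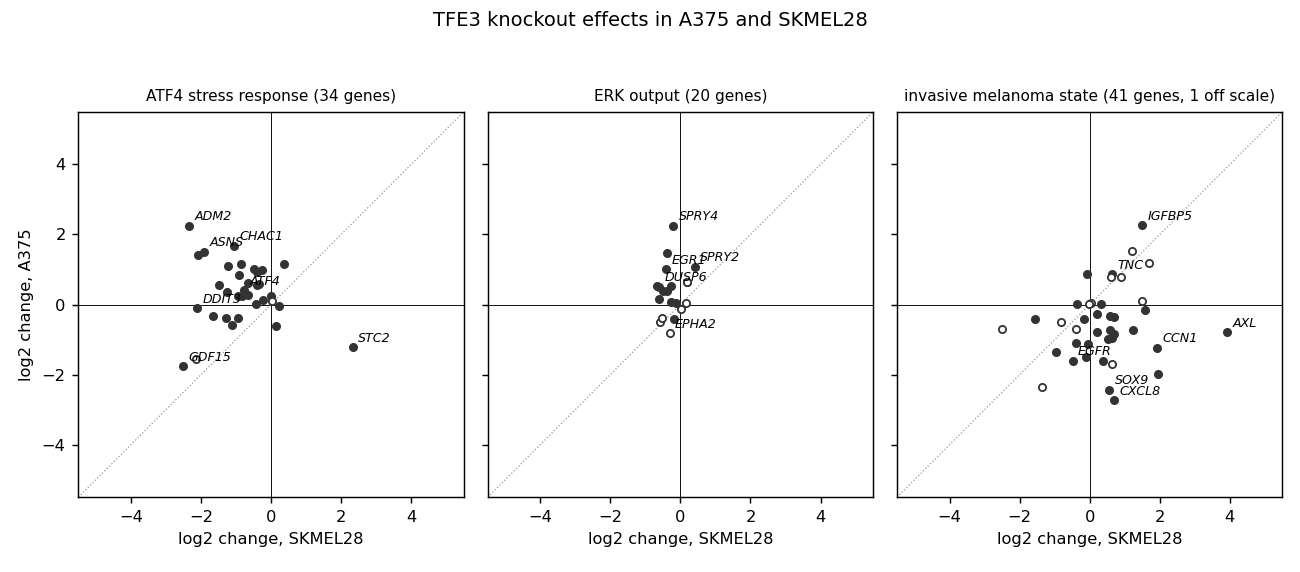
Log2 change after TFE3 editing in A375 (y axis, TFE3KO minus wild type) against SKMEL28 (x axis, mean of both double knockout clones minus MITFKO) for the genes of 3 lists, from the 15-library fit; filled points have a called difference between lines, the dotted line marks equal effects, and IL6 is off scale. Most ATF4 list genes lie at the upper left, above 0 in A375 and below 0 in SKMEL28, while AXL, CCN1 and CXCL8 lie at the lower right.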

How the data were processed

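RNA-seq of total RNA from cultured cells was analysed from the raw counts per gene symbol that the authors deposited. STAR, featureCounts, DESeq2 and the hg19 build are named in the submitters' processing notes, without versions, and STAR alignments were the input of the counting per the file headers. The sources used here do not state the strand setting, annotation release or treatment of multi-mapping reads, so near-identical, overlapping and antisense genes are uncertain. Of 28278 symbols, 14012 passed edgeR's filter on low counts.

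The 3 TFE3KO and 3 wild-type libraries were compared with edgeR 4.0.16 (R 4.3.3; TMM scaling, robust quasi-likelihood F-test, Benjamini-Hochberg adjustment over all tested genes); adjusted p-values above are from that test. The difference between lines was a contrast in a fit of 15 libraries. DESeq2 1.42.0, RLE scaling, no filter, a minimum fold of 1.5, GC correction, a replicate block, all 16 libraries in 1 fit and leaving out each replicate were alternatives. The code was tested on simulated data.

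The comparison and the gene lists were chosen with earlier results of these data known, so lists are described by counts and medians, without a test. Named genes are the TFE family; the 10 largest rises and falls with at least 5 CPM in the higher group and no overlap; the 5 largest gains and losses in CPM at 2-fold or more; up to 5 rises and falls in each list; preset anchor genes; and the 5 largest differences between lines in each direction. List members named outside that rule were chosen after their values were seen. Gene order and chromosomes were taken from RefSeq (GRCh38.p14; 27622 symbols matched), with no coordinates converted between builds. Results on some genes are not reported here. Promoters of 10997 of the 14012 tested genes were found in RefSeq's table.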

Additional observations from a re-analysis of the deposited data

Results flagged for a closer look

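The effect, TFE3-edited cells minus their controls, differed between A375 and SKMEL28 in the following genes, by edgeR's contrast of both effects. Values are the log2 effect in A375 minus that in SKMEL28. Among the TFE family the difference was -1.68 for MITF and -1.55 for TFE3. The 5 largest differences with the lower effect in A375 were BASP1 (-11.28), SH3GL2 (-9.45), PTPRD (-8.76), FOXP1 (-8.55) and IL1B (-7.57). These 5 genes had between 0 and 5 counts over the A375 TFE3KO libraries, so the fitted values depend on the prior count and are no measure of size. BASP1 (0.103, 0.175 and 0.0935 CPM in SKMEL28 MITFKO, clone 3 and clone 13) and SH3GL2 (0.0819, 0.0192 and 0.0579 CPM) were close to undetected in SKMEL28 and had no room to fall there. FOXP1 (12.7, 12.2 and 11.3 CPM), PTPRD (6.82, 5.39 and 6.92 CPM) and IL1B (33.9, 33.4 and 18.5 CPM) were read in all 3 SKMEL28 groups. The 5 largest with the higher effect in A375 were RUNX1T1 (6.87), a transcriptional corepressor, PRRX1 (6.32), a mesenchymal homeobox factor, SPSB4 (5.42), RASD2 (5.11) and SOD3 (5.10), the extracellular superoxide dismutase. In A375, PRRX1 went from 16.4 to 36.1 CPM and SOD3 from 2.14 to 5.12 CPM. In SKMEL28 MITFKO, PRRX1 averaged 0.222 CPM, SPSB4 0.119 CPM, SOD3 0.171 CPM and RUNX1T1 0.12 CPM, so their fitted falls in that line rest on a few counts. Line, medium and MITF status cannot be told apart in these differences.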

How the results depend on the processing

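Named genes called in the main fit kept their direction under the alternatives. Of 4093 comparisons of a named gene with a setting, 3948 gave the same call, 139 lost it, 6 gained one and 0 reversed. A change of sign was not scored for genes not called in the main fit. The minimum fold of 1.5 was not compared gene by gene. Leaving out 1 library at a time gave 2709 to 2977 genes higher and 2727 to 2986 lower, 5094 to 5276 genes with a different effect between lines, a TFE3 change of -3.40 to -3.33, 274 to 281 of the 290 called named genes, and medians of 0.296 to 0.321 for chromosome 13 and -0.284 to -0.262 for chromosome 18. With a minimum fold of 1.5 in edgeR's glmTreat, 693 genes were higher and 565 lower. The other settings stayed within 1.5 times: DESeq2 gave 2779 higher and 2912 lower, and all 16 libraries in 1 fit 2513 and 2295. In that last fit the calls of CTSD (adjusted p = 0.0749), CTSK (0.0706), CD274 (0.101), MCAM (0.124), HEXA (0.154) and ATP6V1C2 (0.0877) ended; HEXA also lost its call by DESeq2 (0.0549), MCAM with GC correction (0.0668) and ATP6V1C2 without the filter (0.0547). The labels do not say whether same-numbered replicates pair. Their deviations over all genes were hardly correlated (-0.021, 0.0097 and -0.026), which cannot show that the cultures were unpaired. With a replicate block 2832 genes were higher and 2889 lower, and 5724 differed between lines. In that fit TFEB (0.0567), MCAM (0.0552) and ATP6V1C2 (0.0640) were not called. In promoters of 100 bases before to 50 after the start, TCACGTGA was in 0.751% of all promoters, and its longer form in 0.331% of those called higher and 0.289% of all. Depth limits genes under about 1 CPM, where a few counts decide a fold.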

Other observations

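3 gene lists were added after the values were seen, so their counts are descriptions. NF-kB is the transcription factor family that drives many inflammatory cytokines and also its own inhibitors. For all 3 lists, the shares of all tested genes are 22.0% lower and 21.3% higher. Of 20 tested genes of NF-kB subunits and feedback, 13 were lower and 2 higher in A375 TFE3KO (median log2 change -0.59). NFKBIZ, an atypical IkB protein, fell from 49.4 to 9.76 CPM, the inhibitor NFKBIA from 70.00 to 25.2 CPM, the adhesion molecule ICAM1 from 175 to 74.6 CPM, the subunit RELB from 52.7 to 27.8 CPM and NFKB2 from 185 to 111 CPM. The subunits RELA (adjusted p = 0.0706) and NFKB1 (adjusted p = 0.323) were not called. Of 11 tested AP-1 and CEBP factors, 6 fell and 1 rose: CEBPD, an acute-phase regulator, fell from 14.8 to 3.27 CPM, FOSL2 from 89.3 to 31.6 CPM and JUN from 51.9 to 24.2 CPM, and FOSB rose from 11.3 to 16.9 CPM. Of 15 tested complement and coagulation genes, 9 fell and 3 rose. The complement protease C1S fell from 2.23 to 0.0838 CPM, and tissue factor, F3, from 13.1 to 6.19 CPM, while the plasminogen activator PLAT rose from 91.5 to 240.1 CPM.

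Genes next to those that were nearly silent in TFE3KO were read as well, also after their values were seen. Beside BASP1, the motor protein gene MYO10 went from 145.9 to 20.5 CPM; RETREG1, the next gene on that side, rose from 4.88 to 9.46 CPM, and LINC02241, on the other side, was not called. The nearest tested genes on either side of IL6 (STEAP1B and TOMM7) were not called. Beside GAGE1, PPP1R3F rose from 3.28 to 5.10 CPM and PAGE1 was not called. Beside SH3GL2, ADAMTSL1 went from 21.3 to 2.97 CPM while CNTLN, on its other side, was not called. Beside PTPRD, LURAP1L went from 4.12 to 0.700 CPM and DMAC1, on the other side, rose from 48.5 to 61.2 CPM. Among tested genes, FOXP1 lies between SAMMSON, which is next to MITF, and RYBP; neither SAMMSON (0.775 and 0.808 CPM) nor RYBP (47.6 and 46.5 CPM) was called. LAMA1, on chromosome 18, kept a few more counts, and genes on both its sides were lower. On one side these were ARHGAP28 (from 1.24 to 0.15 CPM) and L3MBTL4 (from 1.31 to 0 CPM). On the other, PTPRM went from 24.8 to 7.59 CPM, while RAB12, beyond it, was not called.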
